A study of Homo sapiens with 12 samples.

Results

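Crizotinib-treated SNU-5 cells were compared with crizotinib-treated MKN45 cells, to find the genes that separate these gastric cancer lines once the receptor MET has been inhibited for 24 h. The 6 arrays labelled as treated were taken, 3 for SNU-5 and 3 for MKN45, of 12 in the study, and all probes above background were used. Treated cells had received 1 µM crizotinib for 24 h. The other 6 arrays held control cells of the same lines with no drug, 3 of SNU-5 and 3 of MKN45, and served to show which line differences were there without crizotinib. Total RNA of whole cultures was hybridized to Illumina HumanHT-12 v4 bead arrays, which carry probes for human transcripts. Each line is a single established line, and the lines were kept in different media, SNU-5 in Iscove's modified Dulbecco's medium and MKN45 in RPMI-1640. Line and medium therefore cannot be told apart in any comparison between them. Whether the replicates of a group were grown apart is not stated in the labels, and p-values here cover array-to-array spread alone, which may be technical.

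MET is the receptor tyrosine kinase for hepatocyte growth factor. Bound or amplified MET signals through RAS and MAPK, PI3K and STAT proteins to growth, survival and loosening of epithelial contacts. Crizotinib is a small molecule that blocks the kinase of MET and of a few related receptors. SNU-5 and MKN45 are both derived from poorly differentiated gastric carcinomas, carry extra copies of MET and depend on it for growth. Gastric tumor lines differ widely in how much of the gastric or intestinal epithelial program they keep, and that is the background on which a kinase inhibitor acts.

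Levels are background-corrected, quantile-normalized signals on the log2 scale, so a difference of 1 is a 2-fold difference. Differences are SNU-5 minus MKN45, with their standard errors (SE) from a limma fit of all 12 arrays. A signed value in parentheses is such a difference. A gene was called when its brightest tested probe differed by at least 2-fold, with a p under 0.001 and an adjusted p under 0.05. A probe was detected on an array when its detection p was under 0.05. Where a gene was detected on all 3 arrays of one line and on none of the other, the fold is a bound, written "at least". This bound sets the bright line's mean against, for each dim array, the lowest detected signal or the probe's own signal, whichever was higher.

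The 6 arrays of treated cells had mean raw signals of 312.5 to 332.3 in SNU-5 and 386.4 to 444.4 in MKN45, with 18998 to 20170 probes detected. Treated replicates correlated at r of 0.98 or more within a line and at 0.867 to 0.878 between the lines. Among the control arrays, SNU-5 replicate 1 had the highest mean raw signal (557.2) and correlated least with its own group (0.964). Of 18 epithelial markers, 17 passed the filter on dim probes, of which 13 were detected on all 3 SNU-5 arrays and 16 on all 3 MKN45 arrays. None of 12 endothelial markers passed that filter. Of 12 fibroblast markers 5 passed, and their summed signal was 6547 to 7678 in SNU-5 and 1679 to 2443 in MKN45, with LUM and DCN called higher. Of 18 leukocyte markers 9 passed, with summed signals of 1322 to 1887 in SNU-5 and 1728 to 2455 in MKN45. CD14 and CD79B were called higher and LYZ lower. The part of other cell types in any result was not tested. In bulk RNA, fewer cells expressing a gene and less RNA per cell cannot be told apart.

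With crizotinib, 1615 of 12760 genes (12.7%) were higher in SNU-5 than in MKN45 and 1561 (12.2%) were lower. Together these 3176 genes had a median absolute log2 difference of 1.61. At least 8-fold differences were found for 497 genes, 223 higher and 274 lower in SNU-5. A further view is detection, since 267 called genes were detected on all 3 SNU-5 arrays and on no MKN45 array, and 401 genes on all 3 MKN45 arrays and on no SNU-5 array. These one-line genes made up 21% of the calls, and 162 of the 267 and 259 of the 401 were confined in the same way in the control cells. The 3 values of one line lay wholly above the 3 of the other for 7897 genes (61.9%), so separation of the values alone was common. For comparison, 1394 genes (10.9%) were higher and 1364 (10.7%) lower in SNU-5 in the control cells.

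Large differences toward SNU-5 were measured for the genes that follow. LCN2, an iron-siderophore binding protein of inflamed epithelium, had levels of 13.43, 13.35 and 13.48 in SNU-5, against 4.75, 5.01 and 4.61 in MKN45. It was detected on 1 of the 3 MKN45 arrays, and the log2 difference was 8.63 (SE 0.16, adjusted p = 7.1e-13). LGALS2, a galactoside-binding lectin, had levels of 13.32, 13.53 and 13.04 in SNU-5 and of 5.83, 6.01 and 5.93 in MKN45, a difference of 7.37 (SE 0.21, adjusted p = 9.7e-12). These levels did not come near each other in any array. SGCE, a dystrophin-associated sarcoglycan, differed by 7.01 and IGFBP3, which binds insulin-like growth factors, by 6.36. CAMK2N1, an inhibitor of calcium/calmodulin-dependent kinase II, differed by 6.25. NEU1, the lysosomal sialidase, differed by 6.24 and was wider apart than in the control cells, where the difference was 3.87. RARRES1, a retinoic acid responsive gene, differed by 5.56 with crizotinib and by 3.94 without.

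**Figure D1:**
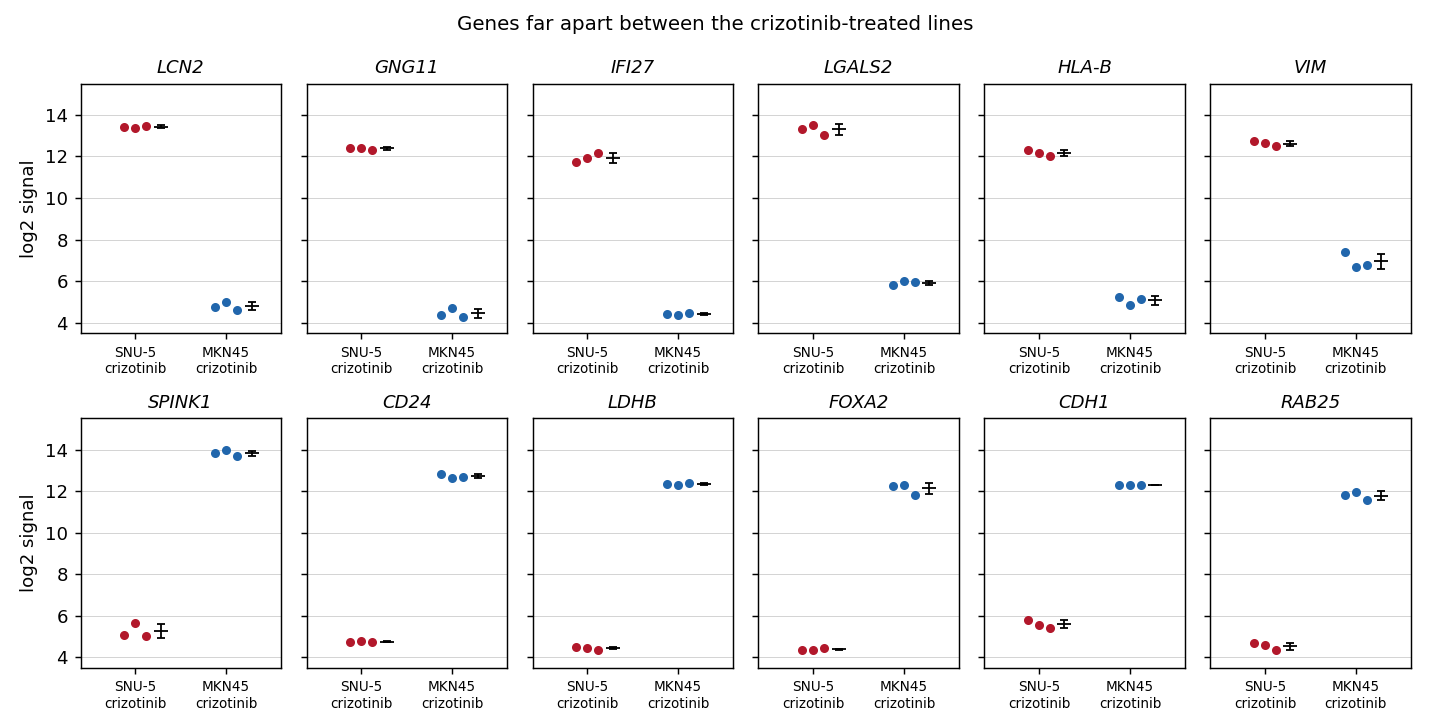
Log2 signal of 12 genes in the 3 SNU-5 (red, left) and 3 MKN45 (blue, right) arrays of crizotinib-treated cells, with the mean and SD beside the points. The upper row holds genes that were higher in SNU-5 and the lower row genes that were lower. All 12 were chosen for large differences between these arrays. The lines overlap in none of them, as in none of the 3176 called genes. Over all genes, the lines did not overlap for 7897 (61.9%).

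Among the treated arrays, several genes were detected only in SNU-5. GNG11, a G protein gamma subunit, had levels of 12.41, 12.42 and 12.32 in SNU-5, and was at 4.35, 4.71 and 4.28 in MKN45, where no array detected it. It was at least 184-fold higher in SNU-5. IFI27, an interferon-induced mitochondrial protein, was at least 134-fold higher and PLAAT4, a retinoid-induced phospholipase, at least 128-fold. PTGES, the inducible prostaglandin E synthase, was at least 107-fold higher. The extracellular proteins LOXL4, a lysyl oxidase, and RELN, reelin, were at least 69.7-fold and 67-fold higher. GPX3, the secreted glutathione peroxidase, was at least 66.4-fold higher. It rose by 2.71 in SNU-5 with crizotinib, and MKN45 did not detect it on any array.

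MKN45 had its own set. SPINK1, a secreted trypsin inhibitor, had levels of 5.09, 5.65 and 5.04 in SNU-5, against 13.81, 13.96 and 13.71 in MKN45, a difference of -8.56 (SE 0.30, adjusted p = 7.2e-11). It rose by 3.77 in MKN45 with crizotinib, and control SNU-5 arrays did not detect it. CD24, a small mucin-like surface protein, was at 4.76, 4.79 and 4.73 in SNU-5 with no array detecting it, and at 12.84, 12.63 and 12.70 in MKN45, at least 229-fold higher in MKN45. LDHB, the lactate dehydrogenase subunit that favors use of lactate, was at 4.48, 4.47 and 4.37 in SNU-5 and at 12.35, 12.27 and 12.41 in MKN45. Not detected in any treated SNU-5 array, it was at least 176-fold higher in MKN45. MAL, a raft protein of apical transport, was at least 133-fold higher in MKN45. FXYD2, a regulator of the sodium pump, was at least 119-fold higher and ADGRG1, an adhesion G protein-coupled receptor, at least 102-fold. SNU-5 did not detect MAL or FXYD2 on any array, and in MKN45 they rose with crizotinib by 2.62 and 4.75 on the log2 scale. UCP2, a mitochondrial carrier, and SPRR1A, a cornified envelope precursor, were detected in both lines and lower in SNU-5, with log2 differences of -5.66 and -5.71.

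The epithelial program was split between the lines. Of 41 epithelial junction genes tested, 21 were lower in SNU-5 and 4 were higher, with a median difference of -1.03, against -0.002 over all genes. The counts of this and the following lists stand against 12.7% higher, 12.2% lower and 24.9% called over all genes. CDH1, which encodes E-cadherin of the adherens junction, had levels of 5.80, 5.58 and 5.43 in SNU-5, against 12.31, 12.30 and 12.28 in MKN45, a difference of -6.70 (SE 0.21, adjusted p = 2.1e-11). RAB25, an epithelial recycling GTPase, was at least 120-fold higher in MKN45, and CLDN18, the gastric tight junction claudin, at least 44.5-fold. The epithelial splicing factor ESRP1 was at least 11.3-fold higher in MKN45 and the transcription factor GRHL2 at least 5.3-fold. ST14, the protease matriptase, and its inhibitor SPINT1, both linked to activation of hepatocyte growth factor, were at least 36.5-fold and 9.07-fold higher in MKN45. None of these genes was detected on any SNU-5 array with crizotinib, except CDH1, whose probe was detected on all 3.

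SNU-5 nonetheless had strong epithelial genes. EPCAM, an adhesion molecule of simple epithelia, was at 11.12, 11.20 and 11.08 in SNU-5 and at 12.66, 12.52 and 12.67 in MKN45, a difference of -1.49 (SE 0.17, adjusted p = 8.5e-06). The claudins CLDN4, CLDN12 and CLDN23 and the desmosomal cadherin DSC3 were the 4 junction genes that were higher in SNU-5, by 1.52 to 2.81. Of 12 keratins tested, 5 were higher and 3 lower in SNU-5. KRT20, the keratin of intestinal and foveolar surface cells, was at least 56-fold higher in SNU-5. KRT7, a keratin of ducts and glands, was at least 29.4-fold higher in MKN45. KRT19 and KRT8 of simple epithelia were higher in SNU-5 by 1.70 and 1.64. Of 19 mesenchymal genes and EMT (epithelial to mesenchymal transition) factors tested, 6 were higher and 5 lower, with a median of 0.01. VIM, vimentin, was at 12.72, 12.63 and 12.49 in SNU-5 and at 7.38, 6.69 and 6.75 in MKN45, a difference of 5.67 (SE 0.23, adjusted p = 2.1e-10). The difference was 5.64 in control cells, and the change was not called. LUM, the matrix proteoglycan lumican, was higher in SNU-5 by 7.52, with 2 MKN45 arrays detecting it. LUM is itself one of the fibroblast markers, so their summed signal contains it and is no separate observation. Of the other fibroblast markers, ACTA2 was detected on all 3 treated arrays of both lines. COL1A1 was detected on all 3 treated MKN45 arrays and on no treated SNU-5 array, but its difference was not called.

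Gastric and intestinal identity genes separated the lines in both directions. Of 41 transcription factors and differentiation genes tested, 12 were higher and 13 lower in SNU-5, 61% in all. The foregut factor FOXA2 was at 4.36, 4.36 and 4.43 in SNU-5, where no array detected it, and at 12.24, 12.32 and 11.82 in MKN45, at least 151-fold higher in MKN45. Its relative FOXA3, detected on 2 SNU-5 arrays, was lower in SNU-5 (-5.73). SOX2, which marks gastric epithelium, was at least 28.9-fold higher in MKN45, and ASCL2, an intestinal stem cell factor, was lower in SNU-5 (-6.34). CDX2, the intestinal homeobox factor, was higher in SNU-5 by 1.37, and HNF4G, a nuclear receptor of the gut lining, was higher by 3.29, with 1 MKN45 array detecting it. GATA5, a gut endoderm factor, was at least 3.11-fold higher in SNU-5. CDH17, the liver-intestine cadherin, was at 13.16, 13.26 and 12.83 in SNU-5 and at 9.49, 9.40 and 9.91 in MKN45, a difference of 3.48 (SE 0.19, adjusted p = 4.7e-09). TM4SF4, an intestinal and liver tetraspan protein, was higher in SNU-5 by 5.52. CEACAM5, the carcinoembryonic antigen, was at least 130-fold higher in MKN45. The gastric products CTSE and VSIG1 were at least 6.94-fold and 7.75-fold higher there, and REG4 at least 8.45-fold. VIL1 and LGALS4 were also called lower in SNU-5.

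Of 14 mucins, trefoil factors and their regulators tested, 1 was higher and 5 were lower in SNU-5. MUC13, a membrane mucin of the gut, was the one that was higher, at 13.06, 12.73 and 12.49 in SNU-5 and at 7.26, 6.92 and 7.20 in MKN45. Its difference of 5.63 was 3.96 larger than the 1.68 of control cells (adjusted p of the change = 2.2e-06). TFF3, the intestinal trefoil factor, was lower (-6.99), with 1 of 3 SNU-5 arrays detecting it. MUC1, the membrane mucin of glands, was lower (-4.85), as was AGR3, a disulfide isomerase family protein of mucous cells (-4.10). For both, the gap was narrower than in control cells, where the differences were -6.39 and -6.79. TFF1, the gastric trefoil factor, was at least 3.65-fold higher in MKN45.

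Of 27 genes of MHC class I and II presentation tested, 18 were higher in SNU-5 (66.7%, against 12.7% over all genes) and none was lower, with a median of 1.60. HLA-B, a class I heavy chain, was at 12.30, 12.18 and 12.02 in SNU-5 and at 5.25, 4.84 and 5.12 in MKN45, a difference of 7.09 (SE 0.17, adjusted p = 3.2e-12). Its MKN45 signal was detected on 2 of 3 arrays. B2M, the light chain shared by class I molecules, was higher by 1.60 and the peptide transporter subunit TAP1 by 1.47. The immunoproteasome subunits PSMB9, detected on 1 MKN45 array, and PSMB8 were higher by 4.74 and 2.69. Class II genes were among the 18 as well. CD74, the invariant chain, was at least 19-fold higher and HLA-DPA1 at least 12.4-fold, and HLA-DRA differed by 2.82. NLRC5, an activator of class I genes, was at least 1.86-fold higher. Many of these genes neighbor each other on chromosome 6, and HLA genes are polymorphic and alike in sequence, so a probe may read alleles and relatives unequally. The part of this in the values was not tested.

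Of 44 interferon-stimulated genes, 23 were higher in SNU-5 (52.3%) and none lower, with a median of 1.32. In control cells 26 were higher and 1 lower, and 21 genes were called higher in both. SAMD9, an antiviral factor, was at 11.06, 10.16 and 11.31 in SNU-5 and at 4.38, 4.39 and 4.72 in MKN45, where it was not detected, at least 63.3-fold higher. SAMD9L, its neighbor on chromosome 7, was at least 18.2-fold higher. IFI44 was at least 11.1-fold and the guanylate-binding protein GBP1 at least 5.26-fold higher. IFIT1, which binds viral RNA caps, was at 9.04, 9.35 and 9.18 in SNU-5 and at 5.69, 5.88 and 6.96 in MKN45. Replicate 3 was the highest of MKN45 but lay below every SNU-5 value, and the difference was 3.02 (SE 0.27, adjusted p = 7.2e-07). The transcription factors IRF9, a partner of STAT proteins, and IRF1 were higher by 2.48 and 1.50. OASL, an oligoadenylate synthetase-like protein, was detected on 2 MKN45 arrays and higher by 3.26, which was 1.73 more than in control cells (adjusted p = 0.0011).

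The promoters of these genes are shown because the list moved one way and because interferon-stimulated genes are known for a shared element, the interferon-stimulated response element. A simple form of it, a pair of GAAA repeats with 2 bases of any kind between them, was searched on both strands (so also as a pair of TTTC repeats) in RefSeq promoters of GRCh38.p14, from 250 bases before to 50 bases after the start of transcription. Matches were allowed to overlap each other. Of the 44 genes, 36 had a promoter in the table, and 24 of these held the motif (66.7%), against 996 of 27305 promoters in all (3.65%). Among the 23 genes that were higher in SNU-5, 17 had a promoter and 12 held the motif (70.6%). Among the 21 that were not called, 19 had a promoter and 12 held it (63.2%). A match is a description and not a proven binding site. The 4 genes with the smallest adjusted p and a match are printed 5′ to 3′ with the matches in capitals. IFI27 lies on the plus strand at chr14:94110486-94110785 and has 2 matches. SAMD9 lies on the minus strand at chr7:93117930-93118229, IFI44 on the plus strand at chr1:78649539-78649838 and GBP1 on the minus strand at chr1:89065159-89065458, with 1 match each.
IFI27: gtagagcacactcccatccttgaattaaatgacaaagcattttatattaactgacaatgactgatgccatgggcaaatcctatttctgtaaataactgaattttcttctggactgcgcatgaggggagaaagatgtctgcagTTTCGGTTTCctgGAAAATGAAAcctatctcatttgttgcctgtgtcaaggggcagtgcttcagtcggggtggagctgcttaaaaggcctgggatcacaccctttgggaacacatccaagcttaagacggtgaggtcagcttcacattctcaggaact
SAMD9: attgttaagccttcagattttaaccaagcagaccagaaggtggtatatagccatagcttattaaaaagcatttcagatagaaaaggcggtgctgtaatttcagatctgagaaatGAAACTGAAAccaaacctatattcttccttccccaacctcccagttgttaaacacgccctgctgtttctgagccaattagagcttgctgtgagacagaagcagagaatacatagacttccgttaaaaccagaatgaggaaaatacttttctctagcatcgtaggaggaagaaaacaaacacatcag
IFI44: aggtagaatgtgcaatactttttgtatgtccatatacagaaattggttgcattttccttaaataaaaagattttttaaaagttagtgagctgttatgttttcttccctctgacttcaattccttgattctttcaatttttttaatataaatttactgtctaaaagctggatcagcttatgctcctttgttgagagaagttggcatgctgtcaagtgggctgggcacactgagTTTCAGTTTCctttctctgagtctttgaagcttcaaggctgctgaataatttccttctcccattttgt
GBP1: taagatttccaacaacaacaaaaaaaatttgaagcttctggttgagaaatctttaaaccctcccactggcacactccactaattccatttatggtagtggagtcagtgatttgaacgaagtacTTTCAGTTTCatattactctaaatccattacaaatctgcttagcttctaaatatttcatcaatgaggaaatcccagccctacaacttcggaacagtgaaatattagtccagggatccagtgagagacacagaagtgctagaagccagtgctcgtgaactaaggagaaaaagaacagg
Counted from the start of transcription, the first IFI27 match begins at -108 and the SAMD9 match at -136. The IFI44 match begins at -18 and the GBP1 match at -127.

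MET itself was close between the lines. Its levels were 11.67, 11.65 and 11.48 in SNU-5, against 11.01, 10.99 and 11.19 in MKN45. The values did not overlap, but the difference of 0.54 (SE 0.21, adjusted p = 0.051) was not called, nor was that of control cells (-0.14). Of 22 receptor tyrosine kinases tested, 5 were higher and 6 lower in SNU-5. The higher ones were AXL, EGFR, FGFR3, MERTK and TYRO3, and the lower ones EPHA1, EPHA4, EPHB4, LTK, ROR1 and RYK. AXL, the receptor for GAS6, was at 9.25, 9.32 and 9.19 in SNU-5 and at 5.28, 5.41 and 5.01 in MKN45, a difference of 4.02 (SE 0.15, adjusted p = 1.6e-10). MERTK, a receptor of the same family, was higher by 1.52. The ligands of these receptors were on opposite sides. GAS6 was at 4.75, 4.50 and 4.97 in SNU-5, where 1 array detected it, and at 10.06, 10.06 and 9.90 in MKN45, a difference of -5.26. It rose by 2.16 in MKN45 with crizotinib, and control SNU-5 arrays did not detect it. PROS1, protein S, was higher in SNU-5 by 2.72. FGFR3, a fibroblast growth factor receptor, was higher by 1.69, while the receptors ERBB2 and ERBB3 differed by 0.47 and 0.18 and were not called.

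Of 29 growth factor ligands tested, 5 were higher and 9 lower. KITLG, the stem cell factor, was detected on 2 MKN45 arrays, and its level was at 9.71, 9.79 and 9.77 in SNU-5 and at 5.08, 4.80 and 5.33 in MKN45, a difference of 4.69 (SE 0.37, adjusted p = 2.2e-07). VEGFA, the endothelial growth factor, was lower (-2.12) with crizotinib and differed by -0.23 without, and the change was called (-1.90, adjusted p = 0.00078). TGFA, a ligand of the epidermal growth factor receptor, was lower (-1.56). Genes downstream of MAPK signaling were split, with 6 of 31 higher and 6 lower. JUN, a subunit of AP-1, was at 6.99, 7.19 and 7.20 in SNU-5 and at 11.14, 11.17 and 11.05 in MKN45, a difference of -3.99 (SE 0.15, adjusted p = 1.2e-10) against -1.18 in control cells. CCND1, cyclin D1, was lower (-2.18), as was IER3, an immediate early gene (-2.93). SPRY1 and SPRY2 are both inhibitors of receptor signaling, and SPRY1 was higher by 2.91 while SPRY2 was lower (-1.25). DUSP5, an ERK phosphatase, was higher by 1.87 with crizotinib and by 4.70 without, a change of -2.83 (adjusted p = 2.3e-05). MYC was at 6.67, 6.05 and 6.83 in SNU-5 and at 4.72, 5.11 and 5.20 in MKN45, with 2 MKN45 arrays detecting it. Its difference of 1.51 (SE 0.26, adjusted p = 0.00035) was not called on quantile-normalized signals without background correction.

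Of 35 p53 targets tested, 16 were lower and 2 higher in SNU-5 with crizotinib (51.4% called, against 24.9% over all genes), with a median of -0.54. In control cells 9 were lower and 2 higher, where 10.7% and 10.9% of all genes were. CDKN1A, the cyclin-dependent kinase inhibitor p21, was at 9.93, 9.83 and 9.88 in SNU-5 and at 12.57, 12.72 and 12.15 in MKN45, a difference of -2.60 (SE 0.23, adjusted p = 7e-07). The control difference of -0.997 had the same direction and lay just under the 2-fold threshold, so it was not called. The change of -1.60 was called (adjusted p = 0.0067). CYFIP2, an actin regulator and p53 target, was at least 29.6-fold higher in MKN45, and PHLDA3, an inhibitor of AKT, at least 8.92-fold. TIGAR, a fructose bisphosphatase, was lower (-3.23), as was GADD45A, a stress sensor (-1.48). SESN1, a brake on mTORC1, was lower (-1.73), as were BAX, the pore-forming death protein (-1.56), and MDM2, the p53 ubiquitin ligase (-1.42). The MDM2 probe was detected on 1 SNU-5 array. SERPINB5 and SFN were the exceptions, higher by 3.29 and 1.38. CDKN2A and CDKN2B, neighboring genes for inhibitors of CDK4 and CDK6, were detected on all 3 SNU-5 arrays and no MKN45 array, at least 9.25-fold and 12.3-fold higher in SNU-5.

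Cell cycle genes were called in 17.8% (mitosis) and 15.9% (DNA replication) of cases, against 24.9% over all genes. Of 45 mitosis genes tested, 1 was higher and 7 were lower. Of 44 genes of DNA replication, 3 were higher and 4 lower. CCNB1, cyclin B1, was at 6.93, 6.78 and 7.66 in SNU-5 and at 8.77, 8.66 and 8.80 in MKN45, a difference of -1.62 (SE 0.22, adjusted p = 3.8e-05). BIRC5, survivin, was lower (-1.61), and replicate 3 of SNU-5 was the highest of its line for both genes. E2F2 was higher by 1.76 and CDC25A lower (-1.28), and neither was called in control cells. MKI67, a marker of cycling cells, differed by 0.13 and was not called.

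Of 22 BCL2 family genes tested, 3 were higher and 8 lower, with a median of -0.69. BMF, a BH3-only death activator, was at 6.40, 6.27 and 5.92 in SNU-5 and at 8.67, 8.79 and 7.96 in MKN45, a difference of -2.27 (SE 0.21, adjusted p = 1e-06) against -0.03 without the drug. Its control means of 4.782 in SNU-5 and 4.812 in MKN45 were near background. The lowest detected signals of the control arrays were 4.842 to 4.906. BCL2L14, a relative of BCL2, was lower (-2.05), with a control difference of -0.70. HRK, another BH3-only gene, was detected on no SNU-5 array and was at least 3.07-fold higher in MKN45. BCL2L11, which encodes BIM, was at 5.75, 5.72 and 5.67 in SNU-5 and at 6.71, 6.90 and 6.25 in MKN45, and its difference of -0.91 (adjusted p = 0.0043) was not called. MCL1, a survival member, was lower (-1.25). In a separate list of 30 death ligands, receptors, caspases and inhibitors of apoptosis, 6 were higher and 3 lower. That is 30% in all, near the 24.9% over all genes. TNFSF10, the death ligand TRAIL, was at 11.03, 11.19 and 11.35 in SNU-5 and at 6.22, 5.85 and 7.01 in MKN45, a difference of 4.83 (SE 0.29, adjusted p = 1.2e-08). CASP4, an inflammatory caspase, was higher by 2.67 and BIRC2, the inhibitor of apoptosis cIAP1, by 1.91. XIAP, another inhibitor of apoptosis, differed by -0.03 and was not called. RIPK3, the necroptosis kinase, was at least 3.65-fold higher in MKN45.

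Of 50 autophagy genes tested, 10 were higher and 4 lower in SNU-5, 28%, which is near the 24.9% of all genes. ATG5, part of the conjugation system of the autophagosome, was at 7.55, 7.12 and 7.37 in SNU-5 and at 4.99, 4.87 and 4.83 in MKN45, with 1 MKN45 array detecting it. The difference of 2.44 (SE 0.18, adjusted p = 1.1e-07) was 1.25 larger than in control cells (adjusted p = 0.007). MAP1LC3B, the LC3B coat protein, was higher by 1.33 and SQSTM1, the cargo receptor p62, by 1.66, while ATG7, the activating enzyme, differed by 0.24 and was not called. Of 43 lysosomal genes tested, 13 were higher and 4 lower, 39.5% in all. CTSD, cathepsin D, was at 10.24, 10.03 and 9.48 in SNU-5 and at 7.05, 7.32 and 6.63 in MKN45, a difference of 2.92 (SE 0.25, adjusted p = 4.3e-07). CTSB and SMPD1, a cysteine protease and acid sphingomyelinase, were higher by 2.42 and 2.06. CTSH and CTSC, both aminopeptidases of the cathepsin family, were lower (-2.55 and -1.58).

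Enzymes of detoxification separated the lines in both directions. Of 41 aldo-keto reductases, UDP-glucuronosyltransferases (UGTs), aldehyde dehydrogenases and cytochromes P450 tested, 15 were higher and 14 lower, 70.7% in all. AKR1C2, a hydroxysteroid dehydrogenase, was at 13.52, 13.21 and 12.99 in SNU-5 and at 6.18, 6.24 and 6.03 in MKN45, a difference of 7.09 (SE 0.19, adjusted p = 6.3e-12). That was 3.52 more than in control cells (adjusted p of the change = 4.6e-06). ALDH1A1, ALDH1A3 and ALDH3A1, aldehyde dehydrogenases, were higher by 2.36, 2.75 and 2.56. ALDH3A2 and ALDH3B1 were also called higher, while ALDH1A2 was lower (-4.58). CYP3A5 and CYP4F11, cytochromes P450, were higher by 4.28 and 2.88. The UGTs that were called, which conjugate glucuronic acid or sugars, were all lower in SNU-5. UGT1A6 was at least 34.1-fold higher in MKN45, and UGT2B17 was lower in SNU-5 (-3.71). AKR1B10, another reductase, was at least 9.03-fold higher in MKN45. The AKR1C, UGT1A and UGT2B genes are near-identical relatives within each family, so their probes may read more than one member.

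Of 38 glutathione transferases and NRF2 targets tested, 16 were higher and 5 lower, with a median of 0.62. TXNRD1, thioredoxin reductase, was at 11.59, 11.60 and 11.36 in SNU-5 and at 8.62, 8.82 and 8.32 in MKN45, a difference of 2.93 (SE 0.22, adjusted p = 1.1e-07). GSTM1, a mu class transferase, was higher by 2.54 and NQO1, a quinone reductase, by 1.28. The alpha class transferases GSTA1 and GSTA2, which are near-identical, were lower (-3.34 and -3.17). Neither class went one way. GSTA5 was also called lower, while GSTA3 and GSTA4 of the alpha class were called higher. In the mu class, GSTM2 was called higher and GSTM3 lower. GPX2, the gut glutathione peroxidase, was lower, with a difference of -2.70 against -6.07 in control cells, a change of 3.37 (adjusted p = 2.3e-06). Among 20 ABC transporters tested, 10 were higher and 1 lower, with a median of 1.20. ABCC2, an export pump for glutathione conjugates, was at least 17.7-fold higher in SNU-5 and ABCG2, a multidrug pump, at least 2.21-fold. ABCC4, a cyclic nucleotide exporter, was lower (-2.75), with 1 SNU-5 array detecting it.

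**Figure D2:**
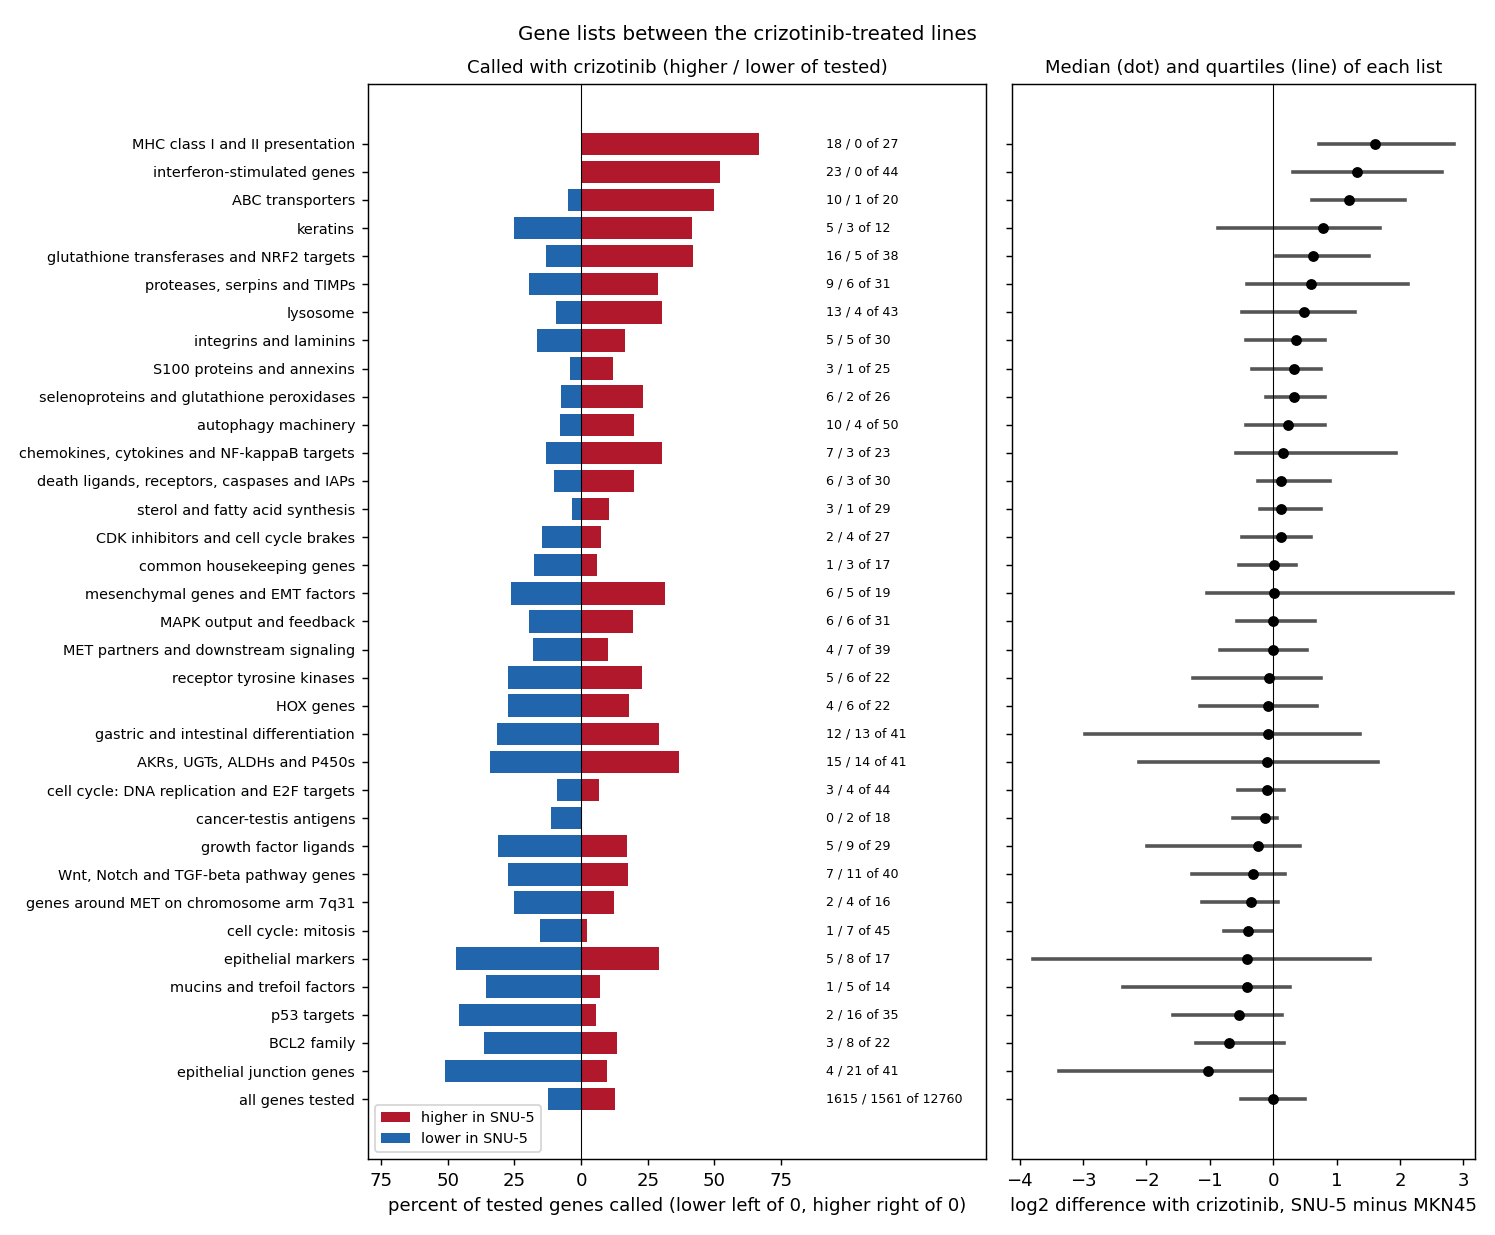
Gene lists with at least 10 tested genes, ordered by their median. On the left, the percent of tested genes called with crizotinib as higher (red, right of 0) or lower (blue, left of 0) in SNU-5 than in MKN45, with the counts, and on the right the median log2 difference with its quartiles. MHC presentation had 18 of 27 genes higher and none lower, and epithelial junction genes 21 of 41 lower and 4 higher.

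Secreted signals and surface molecules were divided too. Of 23 chemokines, cytokines and NF-kappaB targets tested, 7 were higher and 3 lower. CXCL5, a neutrophil attractant, was at 10.15, 10.32 and 10.19 in SNU-5 and undetected in MKN45, at least 41.1-fold higher, and CCL5, a T cell attractant, was higher by 3.69. Of 31 proteases, serpins and TIMPs, 9 were higher and 6 lower. MMP7, matrilysin, was at least 48.7-fold higher in SNU-5, and TIMP2, an inhibitor of metalloproteinases, was higher by 4.87. TMPRSS2, a surface serine protease, was detected on 1 treated and no control SNU-5 array and was lower (-4.83), having risen in MKN45 with crizotinib. Of 30 integrins and laminins, 5 were higher and 5 lower. CD44, the hyaluronan receptor and a partner of MET, was at 8.63, 8.79 and 8.54 in SNU-5 and at 12.73, 12.59 and 12.76 in MKN45, a difference of -4.04 (SE 0.18, adjusted p = 5.9e-10). LAMB3, the laminin 332 beta chain, was at least 75.8-fold higher in MKN45.

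Of 40 Wnt, Notch and TGF-beta pathway genes tested, 7 were higher and 11 lower. NOTCH1 was at 7.00, 6.92 and 6.93 in SNU-5 and at 11.46, 11.71 and 11.46 in MKN45, a difference of -4.59 (SE 0.20, adjusted p = 5.6e-10) against -1.71 without the drug. NOTCH3 was at least 4.11-fold higher in MKN45, and HES1, a Notch target, was lower in SNU-5 (-1.80). RNF43 and AXIN2, feedback inhibitors and targets of Wnt signaling, were lower, RNF43 at least 3.81-fold and AXIN2, detected on 2 SNU-5 arrays, with a difference of -1.75. Other Wnt genes of the list went both ways. DKK1, FZD1, TCF7L2 and WNT7B were called higher in SNU-5, and FZD2, NKD2 and WNT11 lower. ID1, ID2 and ID3, BMP-responsive inhibitors of basic helix-loop-helix factors, were all higher, by 2.62, 3.51 and 3.52. HOX genes, which set position along the body axis, were split, with 4 of 22 higher and 6 lower. HOXC4, HOXC6 and HOXC9 were lower (-1.98, -1.45 and -1.79), and HOXC10 was at least 4.1-fold higher in MKN45. HOXC13 and HOXB8 were higher in SNU-5 by 2.00 and 1.48. Of 16 genes around MET on chromosome arm 7q31, 2 were higher and 4 lower, and CAV1, caveolin, was higher by 1.73 while ST7 was lower (-2.11). Of 39 MET partners and downstream signaling genes, 4 were higher and 7 lower, 28.2% in all, near the 24.9% over all genes. Of 18 cancer-testis antigens 2 were lower, MAGEA6 and MAGEA3, which are near-identical. Of 29 genes of sterol and fatty acid synthesis, 3 were higher and 1 lower.

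Most line differences with crizotinib stood without it. Of the 3176 called genes, 1909 (60.1%) were called the same way between the control lines, and these were 69.2% of the control calls. In 258 of the 1909 the size of the difference changed, wider with crizotinib in 179 and narrower in 79. A further 950 genes (29.9%) were called with crizotinib only, with no call for a change in the difference, and so cannot be assigned. In all, the line difference was more positive with crizotinib than without for 423 genes (3.32%) and more negative for 438 (3.43%). These comparisons share the crizotinib arrays.

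**Figure D3:**
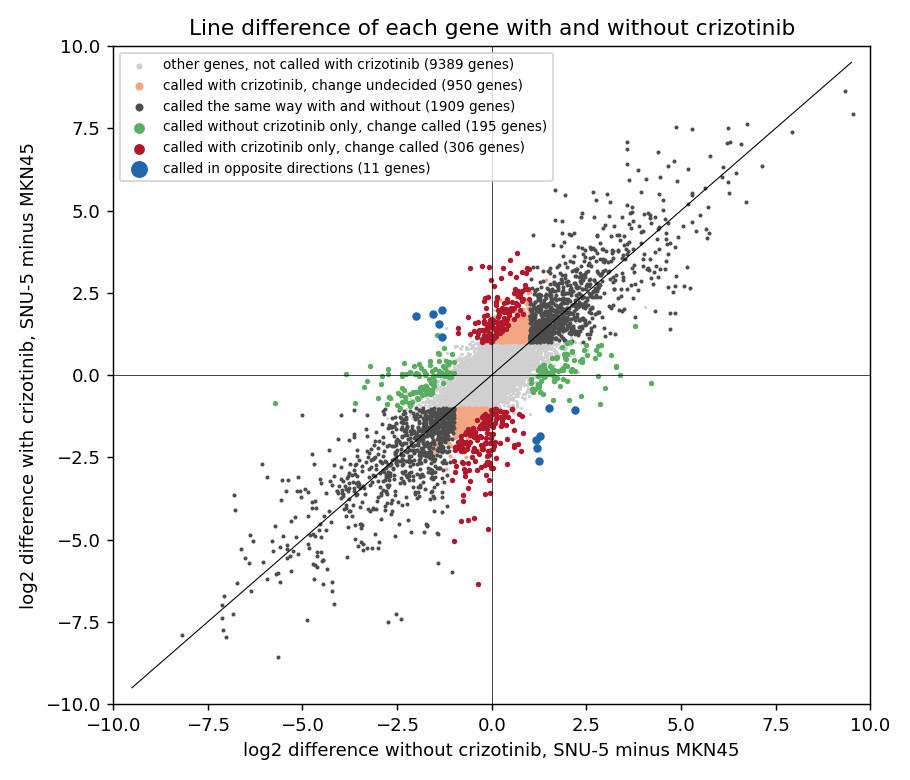
Log2 difference of each of the 12760 genes between SNU-5 and MKN45 without crizotinib (horizontal axis) and with it (vertical axis), colored by call. Of the called genes, 1909 are called the same way with and without crizotinib (dark), 306 are called with crizotinib only and with a called change (red), and 11 are called in opposite directions (blue).

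For 306 genes (9.63% of the calls) the lines were called apart only with crizotinib and the change in their difference was called, 131 higher and 175 lower in SNU-5. Of the 131, only SNU-5 had a called response to the drug in 76, only MKN45 in 23, both in 12 and neither in 20. Of the 175, only SNU-5 responded in 28, only MKN45 in 109, both in 19 and neither in 19. By the rule of this class the line difference had to shift in that direction with crizotinib, so such responses were in part built in. Among the 131, 84 rose in SNU-5 and 30 fell in MKN45. Among the 175, 119 rose in MKN45 and 39 fell in SNU-5. Over all 12760 genes, 904 rose and 952 fell in SNU-5, and 934 rose and 918 fell in MKN45. SERPINB5, the serpin maspin, was at 11.83, 11.88 and 11.65 in SNU-5 and at 8.56, 8.46 and 8.48 in MKN45, a difference of 3.29 against -0.07 in control cells. It rose by 1.56 in SNU-5 with crizotinib and fell by 1.79 in MKN45. EMP1, an epithelial membrane protein, fell by 1.28 in SNU-5 and fell by 5.11 in MKN45, which left a difference of 3.27. ID2 rose by 2.75 in SNU-5, and its change of -0.26 in MKN45 was not called. SLCO2B1, an organic anion uptake transporter, was at 10.29, 10.18 and 9.72 in SNU-5 and at 6.16, 6.42 and 6.48 in MKN45, a difference of 3.71 against 0.66. TPPP3, a tubulin-binding protein, and PLCD4, a phospholipase C, were detected in SNU-5 only among the treated arrays, at least 8.49-fold and 7.15-fold higher. Their control differences were 0.298 and 0.945.

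On the other side, NUPR1, a stress-induced chromatin protein, was at 5.87, 5.66 and 5.56 in SNU-5 and at 11.78, 11.97 and 12.35 in MKN45, a difference of -6.34 (SE 0.40, adjusted p = 2.1e-08) against -0.37 in control cells. The change of -5.97 was called (adjusted p = 2.2e-05). WFDC2, a secreted protease inhibitor, was at 4.39, 4.36 and 4.45 in SNU-5, undetected, and at 9.27, 9.70 and 9.32 in MKN45, at least 23.4-fold higher there. Its control difference of -0.99 had the same direction and lay just under the 2-fold threshold. GLYATL3, a glycine acyltransferase, was at least 20.2-fold higher in MKN45. ERP27, of the disulfide isomerase family in the endoplasmic reticulum, and ELAPOR1, an endosome and lysosome protein, were at least 14-fold and 8.41-fold higher there. HES6, a basic helix-loop-helix factor, was lower (-4.39), and with crizotinib it fell by 1.31 in SNU-5 and rose by 2.45 in MKN45. GDF15, a stress cytokine and p53 target, took another course. It fell by 3.23 in SNU-5 with crizotinib, while its change of -0.32 in MKN45 was not called, and it was lower in SNU-5 (-3.66). UGT2B15, detected on 2 treated and no control SNU-5 arrays, was lower (-4.43) and rose by 4.34 in MKN45.

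In 11 genes the direction turned, a count that was 4 on quantile-normalized signals without background correction and 4 on the deposited log2 values. CDA, cytidine deaminase, was at 8.77, 8.88 and 8.60 in SNU-5 and at 6.76, 6.62 and 6.96 in MKN45, higher by 1.97 with crizotinib (adjusted p = 4.3e-07) and lower (-1.31) without. TRIM31, a gut ubiquitin ligase, was higher by 1.85 with the drug and lower (-1.54) without. HPGD, which breaks down prostaglandins, and PRODH, proline dehydrogenase, were higher by 1.79 and 1.56 with the drug, and PLCE1, a phospholipase C, was higher by 1.15. The PLCE1 call was lost without background correction (0.86). In the other direction, KRT80 was at 6.72, 6.57 and 7.11 in SNU-5 and at 8.85, 9.13 and 9.08 in MKN45, lower (-2.22) with crizotinib (adjusted p = 1.7e-05), against a control difference of 1.20. ANO3, a membrane scramblase, was lower (-2.60), as were CRISPLD2, a secreted protein (-1.96), and CDC42EP2, a cytoskeletal effector detected on 2 SNU-5 arrays (-1.85). DEPTOR, an inhibitor of mTOR, was lower (-1.06) with crizotinib and higher by 2.20 in control cells. Its call was lost without SNU-5 crizotinib replicate 1 (-0.99) and without MKN45 crizotinib replicate 1 (-0.89), and on the deposited log2 values (-0.99). The remaining gene, SSUH2, was detected in MKN45 only among the treated arrays, at least 1.51-fold higher there, and its log2 difference was between -0.96 and -1.07 when 1 treated array was left out. That call was lost without SNU-5 replicate 1 or 2 or MKN45 replicate 1 or 2, with only the 6 crizotinib arrays (-0.99), and without background correction (-0.63).

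**Figure D4:**
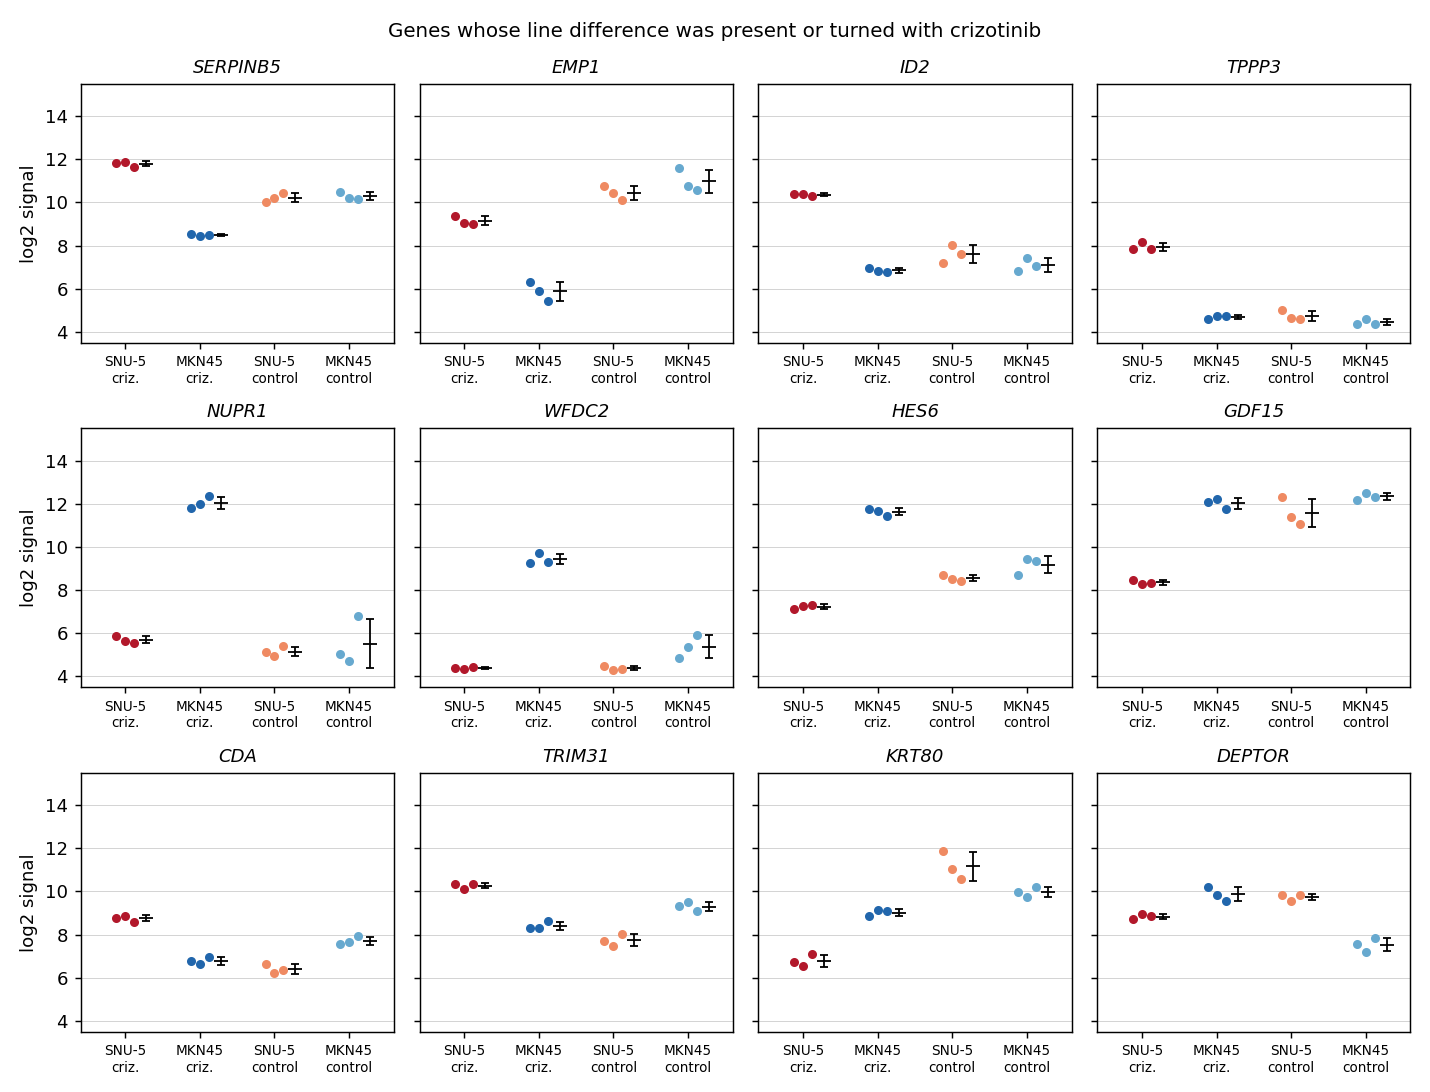
Log2 signal of 12 genes in the 3 arrays of each group, in the order SNU-5 with crizotinib, MKN45 with crizotinib, SNU-5 control and MKN45 control, with the mean and SD beside the points. The upper row shows genes called higher in SNU-5 with crizotinib only, and the middle row genes called lower with crizotinib only. The lower row shows genes called in opposite directions with and without it.

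Finally, 195 genes called between the control lines were no longer called with crizotinib and had a called change, 90 that had been higher in SNU-5 and 105 that had been lower. COL1A2, a collagen chain, and THBD, thrombomodulin, were detected in control SNU-5 only, and none of the 6 treated arrays detected them. THBD was at 4.36, 4.67 and 4.70 in treated SNU-5 and at 4.32, 4.31 and 4.38 in treated MKN45. TMEM158, a RAS-induced surface protein, was higher in SNU-5 by 4.21 without the drug and differed by -0.24 with it. On the other side, FOS, the AP-1 subunit, was detected on none of the 6 treated arrays and differed by -3.86 in control cells. CEMIP, a hyaluronan-degrading protein, was detected on no SNU-5 array with or without the drug, and fell by 4.92 in MKN45 with crizotinib, where 2 arrays still detected it. F3, tissue factor, differed by -3.62 in control cells and by -0.86 with crizotinib, and was detected on all 12 arrays. FOSL1 and HBEGF, 2 further genes induced by MAPK signaling, differed by 1.64 and -1.20 in control cells and by -0.17 and 0.43 with crizotinib, with no call.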

How the data were processed

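Illumina HumanHT-12 v4 arrays of 12 RNA samples were used, 3 per line and treatment, grouped by their titles. The authors deposited signal intensity per probe, not normalized, with a detection p-value per probe and array, and a table of log2 values. These deposited log2 values equal quantile-normalized log2 signals to within 0.005, and served as an alternative. Every value column was used.

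Intensities were background-corrected from the detection p-values, quantile-normalized and put on the log2 scale with an offset of 16 (neqc of limma 3.58.1, R 4.3.3). The filter kept probes detected (p under 0.05) on 3 or more of 12 arrays (23525 of 47323, 49.7%). Gene names came from the platform annotation, where 30113 probes had 1 symbol, 8 had several and 17202 had none. A gene was represented by its tested probe with the highest mean, 12760 genes in all. Of 965 called genes with more than 1 tested probe, 513 had every probe called the same way and 7 had another probe called the opposite way. A single limma model of the 4 groups gave both line differences and their change with crizotinib, with Benjamini-Hochberg adjustment. It was tested on data simulated for the 23525 probes, with normal noise at the spread of its own fit. Differences of 0.7, 2 and 3 on the log2 scale between the treated lines were called for 2.99%, 100% and 100% of the changed probes. The change with crizotinib was called for 5.97%, 91% and 100% of them. The smallest size lay under the 2-fold threshold. Calls needed a 2-fold difference, with thresholds of 0.001 for the p and 0.05 for the adjusted p. The rule for named genes took the largest called differences overall and by class of response, up to 6 genes with the smallest adjusted p of each of 37 gene lists, and genes the study names. Other list members were named after their values were seen. The members and lists were chosen with earlier results of these data known. The number of arrays limits the precision. Alternatives covered background correction, normalization, the probe filter, the gene rule, the fold threshold, the arrays fitted, the replicate block and each array left out.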

Additional observations from a re-analysis of the deposited data

Results flagged for a closer look

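For each gene named here the line difference changed with crizotinib by limma's interaction test, which is what singled it out. Over all genes, the line difference was more positive with crizotinib for 423 and more negative for 438. The values are the log2 difference between SNU-5 and MKN45 with crizotinib minus that without. At least 1 group had no array detecting ADGRG1, ANO3, CDKN2B, CEMIP, COL1A2, CTSE, DCN, ELAPOR1, ERP27, ESRP1, FOS, FXYD2, GAS6, GLYATL3, GNG11, GPX3, IFI27, KRT7, LAMB3, LOXL4, MAGEA3, MAL, MMP7, PLAAT4, PLCD4, REG4, SOX2, SPINK1, SSUH2, TFF1, THBD, TMPRSS2, TNFSF10, TPPP3, UGT2B15, VSIG1 or WFDC2, so their values rest in part on background signals and are no exact changes. Among epithelial, gut differentiation and mucin genes, it was more positive with crizotinib for MUC13 (3.96), EMP1 (3.83), TRIM31 (3.40), REG4 (3.15), AGR3 (2.68), CTSE (2.34), TFF1 (2.34), HNF4G (1.56), MUC1 (1.54) and VSIG1 (1.47). For KRT80 (-3.42), SOX2 (-2.26), KRT7 (-2.10), ASCL2 (-1.87) and ESRP1 (-1.15) it was more negative. Among genes of detoxification, redox, metabolism, transport and autophagy, it was more positive with crizotinib for HPGD (3.80), AKR1C2 (3.52), GPX2 (3.37), CDA (3.29), SLCO2B1 (3.05), PRODH (2.95), GPX3 (2.83), NEU1 (2.37), CYP3A5 (2.23), ALDH3A1 (1.75) and ATG5 (1.25). For GLYATL3 (-4.58), UGT2B15 (-3.63), UGT2B17 (-2.39) and GSTA2 (-2.13) it was more negative. Among receptors, ligands and MAPK genes, it was more positive with crizotinib for FOS (3.88), KITLG (2.84), SPRY1 (1.88), HBEGF (1.63) and ERBB3 (1.14). For TMEM158 (-4.46), DUSP5 (-2.83), JUN (-2.81), GAS6 (-1.96), VEGFA (-1.90), FOSL1 (-1.81) and SPRY2 (-1.18) it was more negative. Among p53 targets, cell cycle and death genes, it was more positive with crizotinib for SERPINB5 (3.36), E2F2 (2.38), TNFSF10 (1.72) and CDKN2B (1.30). For NUPR1 (-5.97), DEPTOR (-3.26), GDF15 (-2.91), BMF (-2.24), CDKN1A (-1.60), TIGAR (-1.43), BCL2L14 (-1.35), GADD45A (-1.31) and CDC25A (-1.07) it was more negative. Among Notch, BMP and related genes, it was more positive with crizotinib for ID2 (3.01) and ID1 (1.42). For HES6 (-3.76) and NOTCH1 (-2.88) it was more negative. Among matrix, protease and coagulation genes, it was more positive with crizotinib for CEMIP (4.86), F3 (2.76), DCN (2.68), LUM (2.65), MMP7 (2.29) and LOXL4 (1.69). For WFDC2 (-4.04), TMPRSS2 (-3.41), COL1A2 (-3.39), CRISPLD2 (-3.14), THBD (-3.04), SPINK1 (-2.93) and LAMB3 (-2.36) it was more negative. Among interferon, retinoid and immune genes, it was more positive with crizotinib for PLAAT4 (2.19), OASL (1.73), RARRES1 (1.62), CD79B (1.34), IFI27 (1.28) and MAGEA3 (1.14). Among the other named genes, it was more positive with crizotinib for TPPP3 (2.95), PLCE1 (2.46) and PLCD4 (2.32). For FXYD2 (-4.76), ERP27 (-3.87), ANO3 (-3.86), ELAPOR1 (-3.43), CDC42EP2 (-3.13), ADGRG1 (-2.79), MAL (-2.58), SSUH2 (-2.52) and GNG11 (-1.61) it was more negative.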

How the results depend on the processing

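Calls with crizotinib, higher and lower in SNU-5, numbered 1206 and 1167 on quantile-normalized signals without background correction, 1207 and 1167 on the deposited log2 values, 1539 and 1493 with no filter on dim probes, and 1596 and 1526 when only the 6 treated arrays were fitted. Of 2373 calls without background correction, 2366 were among the 3176 and none had the opposite direction. The count of genes called in opposite directions with and without crizotinib, 11 in all, was 4 on quantile-normalized signals without background correction, 4 on the deposited log2 values, 18 with no fold threshold and 17 with any probe of a gene. The cause was not tested. The other counts of calls over all genes stayed within 1.5 times under each alternative run. Of 36 list medians, 6 moved by more than the spread between replicates without background correction, all keeping their sign: MHC presentation to 1.44, interferon-stimulated genes to 1.06, ABC transporters to 0.89, lysosome to 0.40, mucins to -0.22 and epithelial junction genes to -0.82. Same-numbered treated replicates of the lines correlated in their deviations at 0.059, 0.314 and 0.423, and differently numbered ones at -0.395 to 0.235. Treated against control replicates of the same number correlated at 0.113, 0.329 and 0.111 in MKN45 and at 0.105, 0.012 and 0.449 in SNU-5. As not every pair correlated, and SNU-5 replicate 1 correlated most with MKN45 replicate 2, pairing by number was not assumed. With the replicate block, 1643 genes were higher and 1600 lower, 330 were called only with crizotinib with a called change, and the line difference changed for 444 genes upward and 485 downward. MYC, CDC25A, MDM2, NLRC5, SPRY2, PLCE1, MAGEA3, DEPTOR and SSUH2 lost their call without background correction. No chip could be used as a block, since the sources used here name none. Dim probes near background give bounds only.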
